A study of Mus musculus with 34 samples.

Results

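The 10 genes studied here, which write or erase methylation of lysine 9 of histone H3 (H3K9), were followed across peak lists of 4 histone marks in mouse microglia. They were taken by name, 10 of the 21631 protein-coding genes of autosomes and X in the RefSeq table used: the methyltransferases Setdb1, Suv39h1, Suv39h2, Ehmt1 and Ehmt2 (the writers), their corepressor Trim28, and the demethylases Kdm4a, Kdm4b, Kdm4c and Kdm3a (the erasers). Each gene was measured as the length in kb that called peaks covered within 2.5 kb of either gene end, and over the gene body. Hippocampal microglia of FGR mice were set against those of Ctrl mice; the series title names intrauterine growth restriction as its subject. All animals of both groups carried 1 copy of a Tmem119-tdTomato reporter allele (Tmem119-tdTomato+/-), which marks microglia by fluorescence, and replicates 1 to 3 were taken at 3 weeks after birth, while no age is labelled for replicate 4. H3K4me3, H3K9ac, H3K27ac and H3K9me3 were each mapped with ULI-NChIP-seq, which precipitates unfixed chromatin of small cell numbers, in 4 libraries per group. The labels give neither the way growth was restricted nor whether a library came from 1 animal or a pool, so p-values measure the spread between these libraries, which may be technical.

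H3K9 methylation marks silent chromatin. Suv39h1 and Suv39h2 trimethylate H3K9 in the heterochromatin around centromeres, Setdb1 does so in euchromatin and over endogenous retroviruses, where Trim28 brings it to sites bound by KRAB zinc finger proteins, and Ehmt1 (GLP) and Ehmt2 (G9a) act as a pair that sets the mono- and dimethyl marks of euchromatin. The Kdm4 enzymes remove tri- and dimethyl marks and Kdm3a removes di- and monomethyl marks. Acetyl and methyl groups cannot share one lysine, so H3K9ac and H3K9me3 exclude each other on a single histone tail. H3K4me3 and H3K9ac lie at active promoters, and H3K27ac lies at active promoters and enhancers.

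The peak lists of the 2 groups differed in size before any gene was looked at. For H3K4me3 they held 43175 to 49045 peaks over 35.4 to 39.9 Mb in FGR and 16598 to 18391 peaks over 10.6 to 12.3 Mb in Ctrl. For H3K9ac they held 54853 to 87128 peaks with a median width of 407 to 459 bp in FGR and 42220 to 47729 peaks of 634 to 696 bp in Ctrl, and for H3K27ac they covered 29.9 to 39.0 Mb in FGR and 62.7 to 65.5 Mb in Ctrl. The FGR lists labelled H3K4me3 correlated more closely with the Ctrl lists labelled H3K9ac (mean r = 0.908 across 21631 genes, gene ends) than with the Ctrl lists labelled H3K4me3 (0.822). The FGR lists labelled H3K9ac had r = 0.757 with the Ctrl lists of their own label, 0.65 with the Ctrl lists labelled H3K4me3 and 0.792 with the FGR lists labelled H3K4me3. The Ctrl lists labelled H3K9ac had r = 0.929 with the Ctrl lists and 0.896 with the FGR lists labelled H3K27ac. Whether labels, antibodies or processing of H3K4me3 and H3K9ac differed between the groups was not tested, and each result on these 2 marks is given under the deposited labels. No read depth came with the lists. Of 10 microglia markers, all had peaks at their ends in both groups for H3K4me3, H3K9ac and H3K27ac. In such bulk libraries a shift in cell makeup cannot be told apart from a change within each cell.

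Of the 10 genes, 9 had peaks of H3K4me3, H3K9ac and H3K27ac at an annotated end, and Kdm4c had none. The reason why its promoters are shown is that the first of its 2 RefSeq starts (chr4:74242247-74242546, plus strand, GRCm38.p6, the assembly behind mm10) was covered by no peak of any mark in either group, while the second, 9.38 kb downstream and inside the gene (chr4:74251629-74251928), was covered in 4 of 4 FGR and 4 of 4 Ctrl libraries of each of H3K4me3, H3K9ac and H3K27ac. The sequences are from RefSeq, 300 bases around each start on the gene's own strand, and capitals mark each CG dinucleotide (CpG). The bare start has 0 CpG and the covered start has 28, against a median of 7 over 32851 RefSeq promoters.
Kdm4c first start: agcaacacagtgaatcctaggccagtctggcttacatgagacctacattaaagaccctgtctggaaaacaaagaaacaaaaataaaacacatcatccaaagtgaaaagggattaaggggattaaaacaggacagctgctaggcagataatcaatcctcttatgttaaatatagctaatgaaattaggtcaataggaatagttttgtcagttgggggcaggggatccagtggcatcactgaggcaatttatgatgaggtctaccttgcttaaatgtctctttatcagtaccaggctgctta
Kdm4c second start: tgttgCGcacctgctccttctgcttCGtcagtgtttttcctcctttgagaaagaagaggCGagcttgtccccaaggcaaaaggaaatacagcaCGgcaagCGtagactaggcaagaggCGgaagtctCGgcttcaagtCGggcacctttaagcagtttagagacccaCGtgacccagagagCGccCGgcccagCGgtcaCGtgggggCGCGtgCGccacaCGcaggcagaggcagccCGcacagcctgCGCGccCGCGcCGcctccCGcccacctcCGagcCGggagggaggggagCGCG

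Suv39h1 is shown because its 2 starts, 0.399 kb apart (chrX:8074711-8075010 for the upstream and chrX:8074312-8074611 for the downstream one, minus strand), were marked differently in the 2 groups. H3K4me3 peaks covered both starts in 4 of 4 FGR libraries and neither in any Ctrl library. H3K9ac covered the upstream start in 0 of 4 FGR and 4 of 4 Ctrl libraries, and the downstream start in 3 of 4 FGR and 2 of 4 Ctrl libraries. The upstream start holds 15 CpG and the downstream start 37.
Suv39h1 upstream start: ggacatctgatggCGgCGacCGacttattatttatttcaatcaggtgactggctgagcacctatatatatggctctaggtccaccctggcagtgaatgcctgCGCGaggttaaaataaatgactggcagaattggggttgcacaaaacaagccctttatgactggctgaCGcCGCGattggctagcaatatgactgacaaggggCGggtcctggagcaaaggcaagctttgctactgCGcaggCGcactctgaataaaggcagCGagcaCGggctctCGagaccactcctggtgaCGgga
Suv39h1 downstream start: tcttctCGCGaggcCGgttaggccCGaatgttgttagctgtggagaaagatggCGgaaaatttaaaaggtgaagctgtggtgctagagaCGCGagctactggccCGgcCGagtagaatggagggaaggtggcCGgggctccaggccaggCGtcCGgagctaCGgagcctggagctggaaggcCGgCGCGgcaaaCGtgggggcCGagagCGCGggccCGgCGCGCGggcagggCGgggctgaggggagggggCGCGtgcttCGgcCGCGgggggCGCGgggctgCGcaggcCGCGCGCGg

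Ehmt1 (chr2:24919560-24919859, minus strand) is shown as a CpG-rich promoter without H3K4me3 peaks in Ctrl. It holds 34 CpG and was covered by an H3K4me3 peak in 4 of 4 FGR and 0 of 4 Ctrl libraries, and by an H3K9ac peak in every library. Kdm4a (chr4:118179994-118180293, minus strand) is shown as its opposite, with 13 CpG and a peak of each of H3K4me3, H3K9ac and H3K27ac in every library of both groups.
Ehmt1 start: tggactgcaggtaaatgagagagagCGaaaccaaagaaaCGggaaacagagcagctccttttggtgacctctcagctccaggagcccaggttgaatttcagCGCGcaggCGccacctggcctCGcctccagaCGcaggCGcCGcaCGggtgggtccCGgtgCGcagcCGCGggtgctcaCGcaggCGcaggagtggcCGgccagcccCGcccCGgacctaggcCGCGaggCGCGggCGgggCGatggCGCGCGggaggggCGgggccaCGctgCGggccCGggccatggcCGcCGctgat
Kdm4a start: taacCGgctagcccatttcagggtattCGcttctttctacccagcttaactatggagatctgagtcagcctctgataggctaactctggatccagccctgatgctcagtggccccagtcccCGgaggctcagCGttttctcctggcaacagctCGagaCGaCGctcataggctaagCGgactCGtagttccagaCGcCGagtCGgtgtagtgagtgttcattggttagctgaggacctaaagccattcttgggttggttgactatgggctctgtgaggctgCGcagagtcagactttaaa

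The GC box (GGGCGG, searched on both strands) was present in both starts of Suv39h1, in the start of Ehmt1 and in the second start of Kdm4c, and in 35.7% of all RefSeq promoters of the same length. It was absent from the letters of the first Kdm4c start and of the Kdm4a start. The last RefSeq start of Kdm3a, 23.8 kb into the gene, also had 0 CpG and no peak of any mark in either group, while its first and second starts were covered in every library of H3K4me3, H3K9ac and H3K27ac.

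H3K4me3 at the gene ends was higher in FGR at 9 of the 9 members tested. Over all 14043 genes tested, 95.5% were called higher and 0% lower, so the members followed the whole list. Their median difference was 1.36 kb, against 0.887 kb over all tested genes. Adjusted p-values here and below are from limma over all genes tested, with Benjamini-Hochberg adjustment, two-sided, and a gene was called at 0.05. With quantile normalization, which gives every library the same distribution, Suv39h1, Ehmt1 and Kdm4b stayed higher, Kdm4a turned (-0.754 kb, adjusted p = 0.025 in limma) and the other 5 no longer passed.

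Among the writers, Suv39h1 (chrX:8061171-8074760) had 1.4, 1.25, 1.25 and 1.23 kb under H3K4me3 peaks in FGR libraries and 0 kb in each of the 4 Ctrl libraries, a difference of 1.28 ± 0.0651 kb (SE; adjusted p = 7.98e-07, limma). Ehmt1 (chr2:24790769-24919643) had 1.66, 1.68, 1.56 and 1.61 kb in FGR and 0, 0, 0.28 and 0 kb in Ctrl (1.56 ± 0.0845 kb, adjusted p = 1.05e-06, limma). In both, Ctrl was bare or nearly so. Suv39h1 met the filter of a peak in at least 2 libraries through FGR alone, so it could not be called lower. Ehmt1, with a peak in 1 Ctrl library, also met the filter through FGR. Ehmt2 (chr17:34898463-34914073) had 2.28, 3.02, 2.58 and 2.68 kb in FGR and 1.26, 1.07, 0.98 and 0.46 kb in Ctrl, the widest difference of the members (1.7 ± 0.2 kb, adjusted p = 5.08e-05, limma). Suv39h2 (chr2:3455815-3474986) averaged 1.83 ± 0.0815 kb in FGR and 0.513 ± 0.271 kb in Ctrl (SD, n = 4 each), and Setdb1 (chr3:95323525-95357202) averaged 1.71 ± 0.152 kb in FGR and 0.718 ± 0.28 kb in Ctrl (SD, n = 4 each). The window and body of Suv39h2 overlap Dclre1c and those of Setdb1 overlap Cers2, so peaks in the overlap belong to either gene. The writers thus ran from bare to well covered in Ctrl, and all lay between 1.23 and 3.02 kb in the FGR libraries.

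Trim28 (chr7:13024152-13031032) had 2.97, 2.97, 2.93 and 2.9 kb of H3K4me3 in FGR and 1.6, 1.69, 1.14 and 1.24 kb in Ctrl (1.52 ± 0.127 kb, SE; adjusted p = 7.4e-06, limma). Its 5′ window also holds Gm31649, whose covered lengths over the 24 libraries of H3K4me3, H3K9ac and H3K27ac differed from those of Trim28 by a root mean square of 0.0026 kb, so the values belong to both genes. The FGR libraries lay close together and well apart from Ctrl.

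Among the erasers, Kdm4a (chr4:118136957-118180090) was already widely covered in Ctrl, with 2.7, 2.95, 3.19 and 3.07 kb in FGR and 2.27, 2.38, 1.74 and 1.69 kb in Ctrl (0.955 ± 0.182 kb, SE; adjusted p = 0.000863, limma), and it is the member whose direction turned with quantile normalization. Kdm4b (chr17:56325970-56403774) had 1.48, 1.54, 1.5 and 1.55 kb in FGR and 0.29, 0, 0 and 0 kb in Ctrl (1.45 ± 0.0836 kb, adjusted p = 1.32e-06, limma). Kdm3a (chr6:71588970-71632990) averaged 2.08 ± 0.0417 kb in FGR and 0.724 ± 0.296 kb in Ctrl (SD, n = 4 each). Bare or nearly bare Ctrl ends were thus found among writers and erasers alike, at Suv39h1, Ehmt1 and Kdm4b. Kdm4b, with a peak in 1 Ctrl library, met the filter through FGR, as Suv39h1 and Ehmt1 did.

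**Figure D1:**
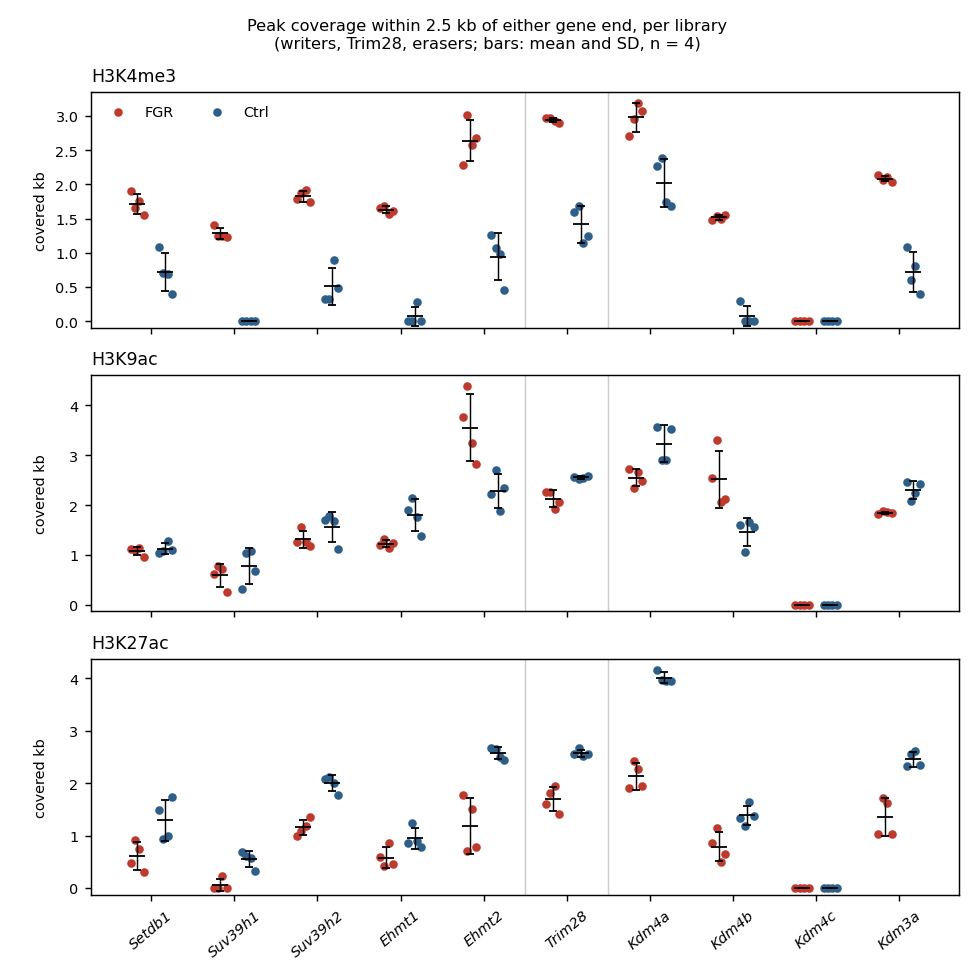
Length under peaks in kb, counted within 2.5 kb of both gene ends (vertical axes) for the 10 genes (horizontal axis; writers, Trim28 and erasers, divided by grey lines), 1 dot per library, FGR in red and Ctrl in blue, with mean and SD of 4 libraries. H3K4me3 is higher in FGR at every member with a peak under the main scaling (Kdm4a turns with quantile normalization), H3K27ac is lower (Suv39h2, Ehmt1, Trim28 and Kdm4b turn), and H3K9ac goes both ways.

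H3K9ac at the gene ends split the members: 2 of the 9 tested were higher in FGR (Ehmt2 and Kdm4b), 4 were lower (Ehmt1, Trim28, Kdm4a and Kdm3a) and 3 did not pass (Setdb1, Suv39h1 and Suv39h2). Over all 15605 genes tested, 28.5% were called higher and 30% lower. The members' median difference was -0.256 kb, against 0.0308 kb over all tested genes. No called member turned direction under any alternative tried at the gene ends. With quantile normalization Kdm4a (-0.533 kb) and Kdm3a (-0.295 kb) no longer passed, and Suv39h1 passed as lower (-0.494 kb).

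Ehmt1 had 1.2, 1.31, 1.14 and 1.24 kb of H3K9ac in FGR and 1.91, 2.14, 1.75 and 1.37 kb in Ctrl (-0.569 ± 0.157 kb, SE; adjusted p = 0.0128, limma), while its H3K4me3 covered more in FGR. These are lengths, not heights. The highest fold enrichment that the authors gave an H3K9ac peak at the Ehmt1 start was 18.7 to 26.3 in FGR and 4.74 to 6.7 in Ctrl. That is each list's own value, so it cannot measure a change between the groups. Within 1 kb of the ends the Ehmt1 difference in covered length did not pass (-0.154 kb, adjusted p = 0.148, limma). Its partner Ehmt2 went the other way, with 3.77, 4.39, 3.24 and 2.82 kb in FGR and 2.23, 2.7, 1.88 and 2.34 kb in Ctrl (1.27 ± 0.323 kb, adjusted p = 0.00883, limma). Most of that lay at the 3′ end, where H3K9ac covered 0.461 to 1.51 kb in FGR and 0 to 0.29 kb in Ctrl. At the 5′ end it covered 2.3 to 2.87 kb in FGR and 1.88 to 2.41 kb in Ctrl, ranges that overlapped. Within 1 kb of the ends the Ehmt2 difference did not pass (0.363 kb, adjusted p = 0.0829, limma). The 3′ window of Ehmt2 is shared with Slc44a4 and its 5′ window with Zbtb12, so these peaks cannot be given to Ehmt2 alone.

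Setdb1 averaged 1.08 ± 0.0796 kb of H3K9ac in FGR and 1.12 ± 0.107 kb in Ctrl (SD, n = 4 each), and the 95% interval of its difference ran from -0.257 to 0.17 kb. For Suv39h1 the interval was -0.62 to 0.247 kb, and for Suv39h2 -0.623 to 0.112 kb. Suv39h2 passed when Ctrl replicate 4 was left out (-0.406 kb, adjusted p = 0.0231, limma).

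Trim28 had 2.27, 2.26, 1.92 and 2.06 kb of H3K9ac in FGR and 2.57, 2.53, 2.54 and 2.58 kb in Ctrl (-0.429 ± 0.103 kb, SE; adjusted p = 0.00672, limma). Kdm3a had 1.82, 1.87, 1.85 and 1.84 kb in FGR and 2.46, 2.08, 2.25 and 2.42 kb in Ctrl (-0.457 ± 0.105 kb, adjusted p = 0.00534, limma). These are again lengths, not heights. The authors' highest fold enrichment of an H3K9ac peak at the Trim28 start, each list's own value, was 23.2 to 25.5 in FGR and 8.64 to 11.9 in Ctrl. At the first Kdm3a start it was 29.1 to 37.2 in FGR and 15.7 to 19 in Ctrl. Kdm4a had 2.72, 2.34, 2.67 and 2.48 kb in FGR and 3.57, 2.91, 2.91 and 3.53 kb in Ctrl (-0.681 ± 0.186 kb, adjusted p = 0.0121, limma), a call that was lost when replicate 4 was left out of both groups (-0.557 kb, adjusted p = 0.0694, limma). The difference lay at the 5′ end, with 0.901 to 1.46 kb in FGR and 1.79 to 2.56 kb in Ctrl. There the highest fold enrichment of an H3K9ac peak at the Kdm4a start was 19.95 to 25.47 in FGR and 11.36 to 16.34 in Ctrl. The 3′ end, shared with St3gal3, had 1.19 to 1.52 kb in FGR and 0.895 to 1.41 kb in Ctrl.

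Kdm4b was the eraser with more H3K9ac in FGR, 2.55, 3.31, 2.07 and 2.13 kb against 1.59, 1.05, 1.66 and 1.56 kb in Ctrl (1.05 ± 0.274 kb, SE; adjusted p = 0.00982, limma). Every FGR library lay above every Ctrl library. When all lists were cut to the same number of peaks the difference fell to 0.205 kb (adjusted p = 0.259, limma). Coverage at the higher-coordinate end was 0.252 to 1.43 kb in FGR and 0 to 0.488 kb in Ctrl, and at the lower-coordinate end 1.31 to 1.88 kb in FGR and 1.05 to 1.66 kb in Ctrl. The window at the lower-coordinate end also holds an end of Uhrf1, which encodes a reader of H3K9 methylation. Uhrf1 itself averaged 2.7 ± 0.376 kb in FGR and 1.33 ± 0.451 kb in Ctrl (SD, n = 4 each; adjusted p = 0.00182, limma).

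H3K27ac at the gene ends was lower in FGR at 9 of the 9 members tested, while Suv39h2, Ehmt1, Trim28 and Kdm4b had differences above 0 (0.0183 to 0.214 kb, none called) with quantile normalization. Over all 11877 genes tested, 81.6% were called lower and 0.194% higher. The members' median difference was -0.842 kb, against -0.707 kb over all tested genes. At Ehmt1 the groups overlapped.

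Kdm4a had 1.9, 2.42, 2.27 and 1.94 kb of H3K27ac in FGR and 4.17, 3.98, 3.96 and 3.96 kb in Ctrl, a difference of -1.89 ± 0.136 kb (SE; adjusted p = 4.98e-06, limma). It was also the member that still passed as lower with quantile normalization (-0.442 kb, adjusted p = 0.0347, limma). Both of its ends were lower, the 5′ end with 0.858 to 0.988 kb in FGR and 1.8 to 2.22 kb in Ctrl, and the 3′ end with 1.04 to 1.46 kb in FGR and 1.95 to 2.16 kb in Ctrl. Among the 11877 genes its difference stood at the 8.06th percentile from the lowest. Kdm3a had 1.04, 1.72, 1.62 and 1.04 kb in FGR and 2.32, 2.55, 2.61 and 2.34 kb in Ctrl (-1.1 ± 0.175 kb, adjusted p = 0.000334, limma). Kdm4b averaged 0.785 ± 0.283 kb in FGR and 1.39 ± 0.19 kb in Ctrl (SD, n = 4 each; adjusted p = 0.00593, limma).

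Among the writers, Suv39h1 was nearly without H3K27ac in FGR, with 0, 0, 0.23 and 0 kb against 0.68, 0.62, 0.58 and 0.32 kb in Ctrl (-0.494 ± 0.115 kb, SE; adjusted p = 0.00298, limma). Ehmt2 had 1.77, 0.7, 1.5 and 0.78 kb in FGR and 2.68, 2.65, 2.51 and 2.44 kb in Ctrl (-1.38 ± 0.228 kb, adjusted p = 0.000407, limma), and its FGR libraries spread widely. Suv39h2 had 1, 1.09, 1.18 and 1.35 kb in FGR and 2.08, 2.12, 2.01 and 1.78 kb in Ctrl (-0.842 ± 0.119 kb, adjusted p = 0.000163, limma). The writers thus shared the direction but not the size of the H3K27ac difference under the main scaling, with Suv39h2 and Ehmt1 turning with quantile normalization.

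Setdb1 had 0.48, 0.91, 0.75 and 0.3 kb of H3K27ac in FGR and 1.48, 0.94, 1 and 1.74 kb in Ctrl (adjusted p = 0.0117, limma), and the highest FGR library nearly touched the lowest Ctrl library. Ehmt1 averaged 0.58 ± 0.194 kb in FGR and 0.946 ± 0.208 kb in Ctrl (SD, n = 4 each; adjusted p = 0.0338, limma). These were the weakest calls: without replicate 4 of both groups the adjusted p was 0.0746 for Setdb1 and 0.0762 for Ehmt1. The Ehmt1 call was also lost without FGR replicate 1, 2 or 4 (adjusted p = 0.0612, 0.0799 and 0.0825, limma) and without Ctrl replicate 2 or 3 (adjusted p = 0.0885 and 0.0507, limma). Trim28 averaged 1.7 ± 0.233 kb in FGR and 2.57 ± 0.0682 kb in Ctrl (SD, n = 4 each; adjusted p = 0.000191, limma).

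**Figure D2:**
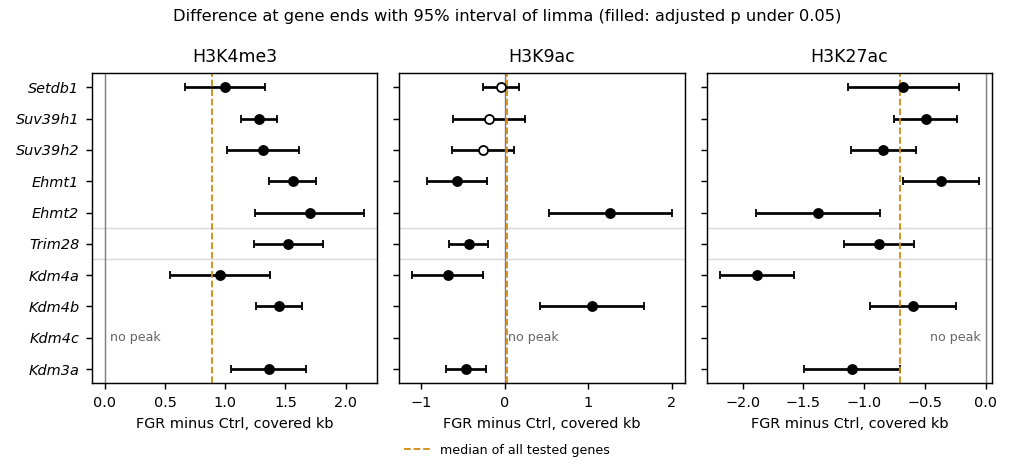
Difference in covered kb at the gene ends, FGR minus Ctrl (horizontal axes), for the 10 genes (vertical axis, writers above Trim28 above erasers), with the 95% interval from limma; filled points were called and the dashed line is the median of all genes tested for that mark. Kdm4a stands far to the left for H3K27ac (-1.89 kb), and Ehmt2 (1.27 kb) and Kdm4b (1.05 kb) stand to the right for H3K9ac. With quantile normalization Kdm4a turns for H3K4me3, and Suv39h2, Ehmt1, Trim28 and Kdm4b turn for H3K27ac.

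The median H3K4me3 difference at the ends was 1.31 kb over the 5 writers and 1.36 kb over the 3 erasers tested. For H3K9ac it was -0.186 kb for the writers and -0.457 kb for the erasers, with 1 writer called higher and 1 lower, and 1 eraser called higher and 2 lower. For H3K27ac it was -0.678 kb for the writers and -1.1 kb for the erasers, with every tested gene of both classes called lower under the main scaling. These medians rest on 3 to 5 genes and are descriptions with no test.

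Kdm4c (chr4:74242497-74405864) has to be read at its second start. This window, 2.5 kb to each side, was chosen after the peaks had been seen. It had 1.71, 2.25, 1.92 and 2.02 kb of H3K4me3 in FGR and 1.57, 1.16, 1.55 and 1.43 kb in Ctrl, with 1.53, 1.76, 1.5 and 1.56 kb of H3K9ac in FGR and 2.21, 1.95, 2.05 and 2.06 kb in Ctrl. H3K27ac covered 1.26, 1.06, 1.25 and 1.25 kb in FGR and 2, 1.83, 1.69 and 1.87 kb in Ctrl. Around the second start of Kdm4c, H3K4me3 peaks thus covered more and H3K9ac and H3K27ac peaks less in FGR. Over the whole Kdm4c body, H3K4me3 was instead called lower in FGR with quantile normalization (-1.2 kb, adjusted p = 0.00279, limma), a scaling not applied around the second start. The authors' highest fold enrichment of a peak at that start, again each list's own value, was 25.7 to 30.7 in FGR and 12.7 to 15.7 in Ctrl for H3K9ac, and 13.6 to 16.4 in FGR and 13.9 to 18 in Ctrl for H3K27ac. The exact permutation test, two-sided, gave p = 0.0286 for each mark, the smallest that 4 against 4 libraries allow. A second region 68.8 kb into the gene (chr4:74311128-74311514 for H3K4me3) had an H3K4me3 peak in 4 of 4 FGR and 0 of 4 Ctrl libraries, while H3K9ac was called there in 0 of 4 FGR and 3 of 4 Ctrl libraries and H3K27ac in 1 of 4 FGR and 4 of 4 Ctrl libraries.

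**Figure D3:**
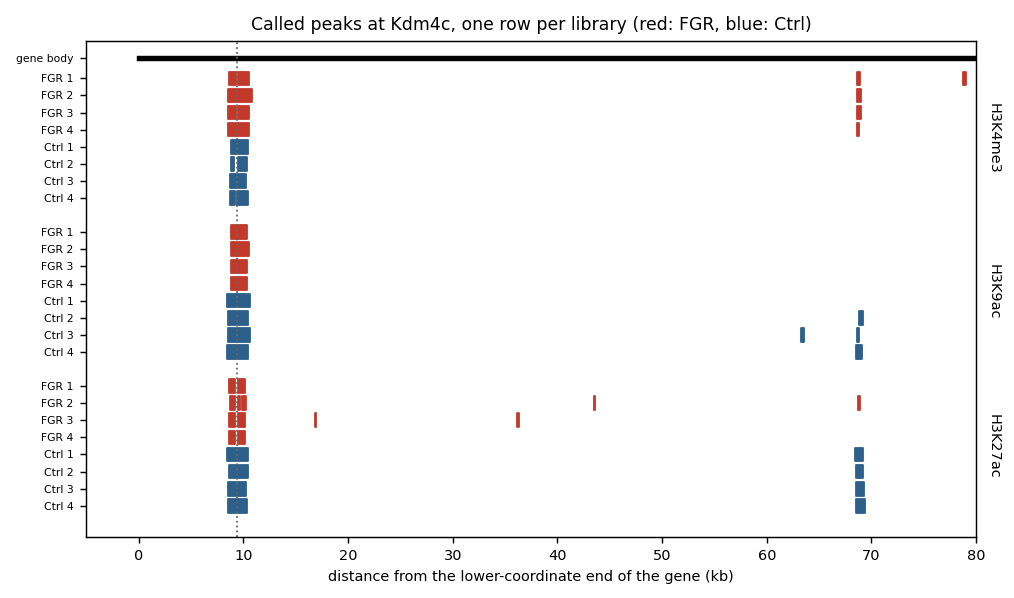
Called peaks along the first 80 kb of Kdm4c (horizontal axis, distance in kb from the lower-coordinate end, which is the first annotated start), 1 row per library, FGR rows red and above the blue Ctrl rows of each mark. The annotated first start is bare in all 24 libraries, the dotted line 9.38 kb downstream marks the second start, and the region 68.8 kb in carries H3K4me3 in FGR and H3K27ac in Ctrl, with 1 FGR library also showing H3K27ac there.

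Over the gene bodies H3K4me3 was called higher at 10 of 10 members (93.3% of 14608 genes tested were called higher and 0.0205% lower). With quantile normalization Kdm4c turned and was called lower (-1.2 kb, adjusted p = 0.00279, limma), while Kdm4a and Kdm3a turned without a call. Setdb1, Suv39h2, Ehmt2 and Trim28 no longer passed with it, which left Suv39h1, Ehmt1 and Kdm4b called higher. Over the bodies Suv39h1 and Suv39h2 had H3K4me3 peaks in FGR alone and could be called only higher. Ehmt1 and Kdm4b, with a peak in 1 Ctrl library each, also met the filter through FGR. Kdm4a no longer passed with lists of equal length (0.329 kb). H3K27ac was called lower at 10 of 10 (71.5% of 12400 genes were called lower and 0.226% higher), and with quantile normalization none of the 10 calls remained. H3K9ac was called higher at 3 of 10 (Suv39h2, Ehmt2 and Kdm4b) and lower at 3 of 10 (Ehmt1, Trim28 and Kdm4c), against 29.7% higher and 26.3% lower of 16324 genes.

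Kdm4b stood out for H3K9ac. Its 77.8 kb body had 12.95, 13.6, 9.73 and 7.73 kb under H3K9ac peaks in FGR and 2.83, 1.7, 3.13 and 2.17 kb in Ctrl, a difference of 8.55 ± 1.28 kb (SE; adjusted p = 0.00127, limma) that ranked 66th from the top among 16324 genes. The covered share was 14.1 ± 3.55% in FGR and 3.16 ± 0.827% in Ctrl (SD, n = 4 each). In FGR the coverage came as 17 to 32 separate peaks along the body, against 4 to 6 in Ctrl, with median widths of 314 to 343 bp in FGR and 373 to 501.5 bp in Ctrl. In the body, 5 regions had a peak in all 4 FGR libraries and in no Ctrl library, among them chr17:56328040-56329244, chr17:56360197-56361012 and chr17:56401529-56402488. A single region went the other way: at chr17:56337520-56338080, 11.8 kb into the gene, H3K9ac was called in 0 FGR and 4 Ctrl libraries and H3K4me3 in 4 FGR and 0 Ctrl libraries. Close beside it, each FGR library had an H3K9ac peak that ended 11.277 to 11.449 kb into the gene. The Ctrl peaks of the region began 11.55 to 11.62 kb in, so the groups differed in peak position there. H3K27ac, called in the region itself in all 8 libraries, covered less of the Kdm4b body in FGR (1.7 ± 0.633 kb) than in Ctrl (3.09 ± 0.352 kb; SD, n = 4 each; adjusted p = 0.00696, limma).

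With all H3K9ac lists cut to the same number of peaks the Kdm4b body difference was 3.76 kb (adjusted p = 3.8e-05, limma), so part of its size moved with list length. The H3K9ac peaks at the ends of 8 neuron markers summed to 5.56 to 7.76 kb in FGR and 0.325 to 0.709 kb in Ctrl. Of these markers 4 of the 5 tested were called higher, against 28.5% higher and 30% lower of all genes. Snap25 and Gad1 were at 0 in both groups, and Syt1, Nefl and Nefh at 0 in Ctrl. Any of the latter that was tested met the filter through FGR alone and could be called only higher. The 10 microglia markers summed to 33.5 to 38.1 kb in FGR and 51.7 to 53.9 kb in Ctrl, with 2 called higher and 7 lower. Oligodendrocyte lineage markers summed to 4.57 to 8.28 kb in FGR and 1.52 to 3.36 kb in Ctrl. For astrocytes the range was 2.73 to 5.39 kb in FGR and 3.14 to 4.18 kb in Ctrl, for endothelial and mural cells 5.11 to 9.25 kb in FGR and 6.06 to 7.04 kb in Ctrl, and for other leukocytes 0 to 0.673 kb in FGR and 2.29 to 2.88 kb in Ctrl. Under H3K27ac peaks the neuron markers summed to 0 to 0.364 kb in FGR and 0 kb in Ctrl, and the microglia markers to 42.56 to 50.65 kb in FGR and 79.25 to 80.25 kb in Ctrl. Under H3K4me3 peaks the sums were 2.523 to 3.223 kb in FGR and 0 to 1.025 kb in Ctrl for neuron markers. For microglia markers they were 48.4 to 52.93 kb in FGR and 21.21 to 25.44 kb in Ctrl. The part of these marker shifts and of list length in the H3K9ac results was not tested.

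**Figure D4:**
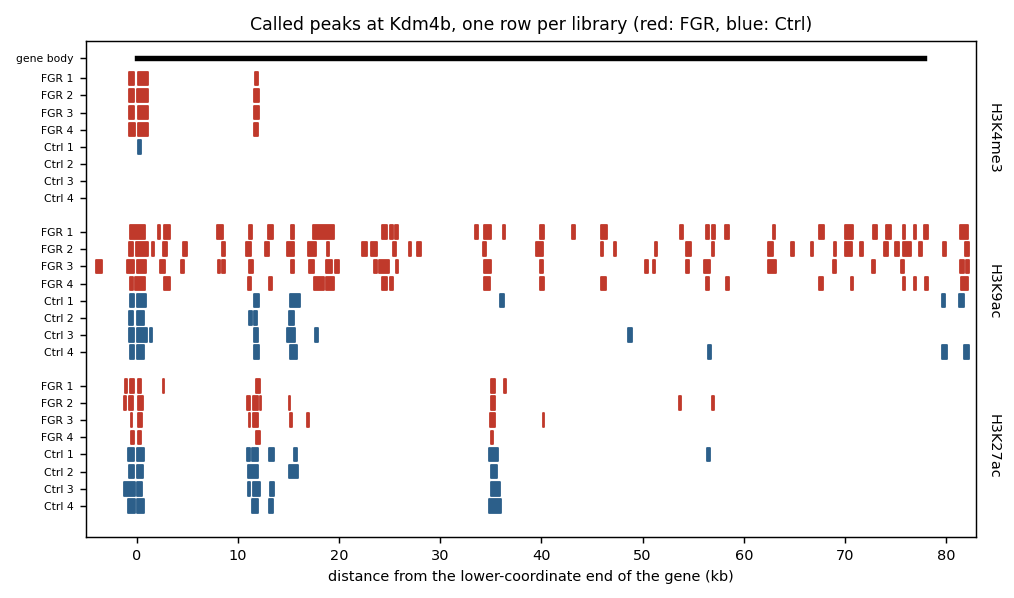
Called peaks along Kdm4b (horizontal axis, distance in kb from the lower-coordinate end of the gene), 1 row per library, FGR rows red and above the blue Ctrl rows of each mark. H3K9ac runs across the whole body in the 4 FGR libraries (17 to 32 peaks), while the Ctrl libraries hold 4 to 6 peaks, most of them toward the lower-coordinate end.

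Ehmt1 changed the opposite way. Its 129 kb body had 1.1, 0.96, 0.81 and 0.88 kb under H3K9ac peaks in FGR and 2.92, 3.32, 3.65 and 3.11 kb in Ctrl (-2.31 ± 0.164 kb, SE; adjusted p = 4.3e-05, limma). In FGR that coverage was almost all at the promoter, with 1 to 2 peaks touching the body, against 4 to 6 in Ctrl. An internal region 69.2 kb from the 5′ end (chr2:24849881-24851036) had H3K9ac in 0 FGR and 4 Ctrl libraries, and H3K27ac in all 8, covering a mean of 841 bp in FGR and 2050 bp in Ctrl. H3K4me3 was called there at chr2:24850178-24850368 in 3 FGR libraries, at the adjoining chr2:24849590-24850090 in 1 FGR library, and in 0 Ctrl libraries. The lower H3K9ac of the Ehmt1 body held with equal list lengths (-2.09 kb, adjusted p = 2.68e-05, limma) and with quantile normalization (-2.31 kb).

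Ehmt2 had 5.14, 5.91, 2.36 and 2.28 kb of H3K9ac over its 15.6 kb body in FGR and 1.54, 1.68, 1.17 and 1.64 kb in Ctrl (2.41 ± 0.855 kb, SE; adjusted p = 0.0445, limma). FGR replicates 1 and 2 were more than 2 kb above FGR replicates 3 and 4. The call was lost without FGR replicate 1 or 2 (adjusted p = 0.105 and 0.0771, limma), without Ctrl replicate 1, 2, 3 or 4 (adjusted p = 0.0861, 0.0812, 0.0972 and 0.0832, limma), and with lists of equal length (0.88 kb, adjusted p = 0.104, limma).

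Suv39h2 had 0.69, 0.69, 0.7 and 0.62 kb of H3K9ac over its body, which Dclre1c overlaps, in FGR and 0.42, 0.43, 0.46 and 0 kb in Ctrl (0.348 ± 0.116 kb, SE; adjusted p = 0.0355, limma). The call was lost without FGR replicate 1, 2, 3 or 4 (adjusted p = 0.0725, 0.0642, 0.0684 and 0.0523, limma) and without Ctrl replicate 1 (adjusted p = 0.0534, limma). Trim28 differed by -0.195 kb, with 1.07 to 1.11 kb in FGR and 1.27 to 1.29 kb in Ctrl. Its call (adjusted p = 0.0261, limma) was lost without FGR replicate 1 (0.0545) and without Ctrl replicate 1, 2, 3 or 4 (0.0563, 0.0545, 0.0519 and 0.0583), and its direction turned when a peak had to lie at least 50% in the body (0.441 kb, adjusted p = 0.288, limma). These 2 body calls sat close to the threshold.

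Kdm4c had 1.53, 2.01, 1.5 and 1.56 kb of H3K9ac over its body in FGR and 2.21, 2.27, 2.6 and 2.66 kb in Ctrl (-0.783 ± 0.161 kb, SE; adjusted p = 0.0051, limma), most of it at the second start. Kdm4a and Kdm3a did not pass over the body. Kdm4a had 5.63, 6.47, 4.6 and 3.66 kb in FGR and 3.2, 3.94, 3.94 and 2.96 kb in Ctrl (adjusted p = 0.0559, limma), and it passed as higher without FGR replicate 4 (2.06 kb, adjusted p = 0.0111, limma). Its body therefore went above Ctrl in value while its ends were called lower. Kdm3a passed as lower without Ctrl replicate 3 (adjusted p = 0.0233, limma), against 0.0528 with it.

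The H3K27ac difference over the bodies was widest at the erasers Kdm4a and Kdm3a and at Ehmt1. Kdm4a had 3.96, 3.81, 3.68 and 3.11 kb in FGR and 6.79, 7.58, 7.57 and 7.71 kb in Ctrl (-3.77 ± 0.257 kb, SE; adjusted p = 2.44e-05, limma). The number of peaks touching its body went the other way, 8 to 12 in FGR and 3 to 5 in Ctrl. Peaks in the gene and within 2.5 kb of it had median widths of 343.5 to 429 bp in FGR and 1822 to 2412 bp in Ctrl. The whole H3K27ac lists also held more and shorter peaks in FGR (53492 to 78143, median width 314 to 365 bp) than in Ctrl (45988 to 50116, 825 to 919 bp). More and shorter peaks in FGR were thus not particular to Kdm4a. Ehmt1 averaged 2.32 ± 0.494 kb in FGR and 5.35 ± 0.835 kb in Ctrl (SD, n = 4 each; adjusted p = 0.000668, limma), and Kdm3a 2.13 ± 0.691 kb in FGR and 4.62 ± 0.321 kb in Ctrl (SD, n = 4 each; adjusted p = 0.000545, limma). In Kdm3a the main internal region, 30.4 kb from the 5′ end (chr6:71600656-71604593), was called in all 8 libraries and covered a mean of 1127 bp in FGR and 2868 bp in Ctrl. Suv39h1 had no H3K27ac over its body in any FGR library and 0.31, 0.32, 0.32 and 0 kb in Ctrl (adjusted p = 0.0443, limma), and with peaks in Ctrl alone it could be called only lower. That call was lost without any 1 of the 4 FGR replicates (0.0836, 0.0709, 0.0801 and 0.0854) and without Ctrl replicate 1, 2 or 3 (0.104, 0.1 and 0.097).

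**Figure D5:**
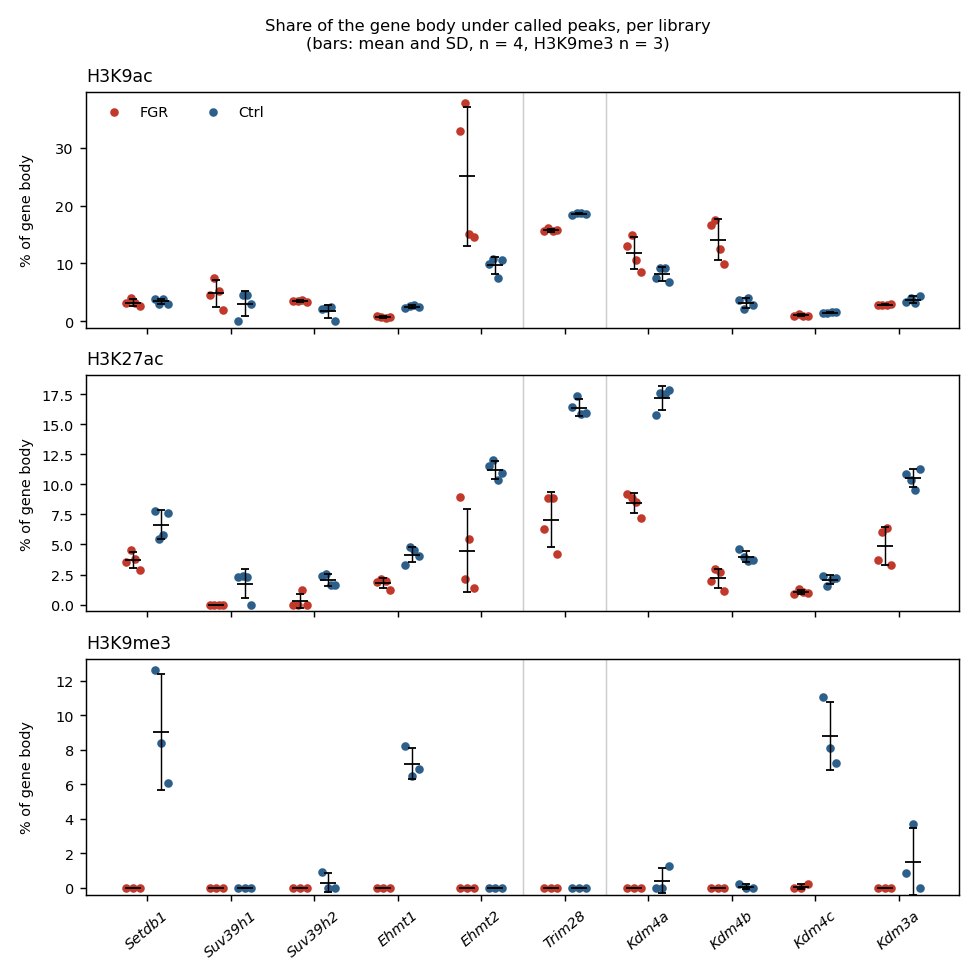
Percent of the gene body under called peaks (vertical axes) for the 10 genes (horizontal axis), 1 dot per library, FGR in red and Ctrl in blue, with mean and SD of 4 libraries (3 for H3K9me3, replicates 1 to 3). Kdm4b and Ehmt2 stand higher for H3K9ac in FGR, and H3K27ac is lower in FGR under the main scaling (no call remains with quantile normalization). H3K9me3 peaks were called in Ctrl mostly at Setdb1, Ehmt1 and Kdm4c, in lists that reached down to a −log10 q of 0. At a common −log10 q of at least 1.3 no member was covered in either group.

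H3K9me3 is the mark that Suv39h1, Suv39h2 and Setdb1 set and the Kdm4 enzymes remove. At the gene ends 4 members could be tested (Setdb1, Kdm4b, Kdm4c and Kdm3a) and limma called 0 of them (0 also at an unadjusted p under 0.05), against 34.9% of 10313 genes called lower and 0.0873% higher. Kdm3a was nearest to a call (-0.843 kb, adjusted p = 0.112, limma): it passed as lower on the log2 scale (adjusted p = 0.0131) and without Ctrl replicate 1 (-0.448 kb, adjusted p = 0.0481) or 3 (-1.14 kb, adjusted p = 0.0363, limma). Over the bodies 3 of the 4 tested were called lower in FGR (61.8% of 12489 genes were called lower and 0.104% higher). Setdb1 had 0 kb in FGR replicates 1 to 3 and 4.26, 2.83 and 2.04 kb in Ctrl (adjusted p = 0.0107, limma), and Ehmt1 had 0 kb in FGR and 10.6, 8.39 and 8.89 kb in Ctrl (adjusted p = 0.000786, limma). Kdm4c had 0, 0 and 0.41 kb in FGR and 18.06, 13.22 and 11.87 kb in Ctrl (adjusted p = 0.00295, limma). The 4 members tested at the ends met the filter of a peak in at least 2 libraries through Ctrl alone. So did Setdb1, Ehmt1 and Kdm3a over the bodies. None of these could be called higher in FGR. Kdm4c, with a peak in 1 FGR library, also met the filter through Ctrl. Suv39h1, Ehmt2 and Trim28 had no H3K9me3 peak in any library.

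These H3K9me3 calls came with a difference between the lists, whose part in them was not tested. The Ctrl lists of replicates 1 to 3 held 345501 to 492938 peaks and reached down to a −log10 q of 0, while the FGR lists held 15522 to 22903 peaks and ended at a −log10 q of 1.01 to 1.05. At a common −log10 q of at least 1.3 no member was covered in any of these 6 libraries, and 1999 to 2329 gene bodies were covered in FGR and 16 to 23 in Ctrl. In replicate 4, whose lists held 11204 narrow peaks in FGR and 257 in Ctrl, no member had a peak over its ends or body. The body call at Setdb1 was also lost with lists of equal length (-0.836 kb), where Ehmt1, Kdm4c and Kdm3a had too few peaks left to be tested, and that at Kdm4c with quantile normalization (-5.07 kb). With replicate 4 included the body calls at Setdb1, Ehmt1 and Kdm4c did not pass (adjusted p = 0.0912 for each, limma). At the common threshold neither group had an H3K9me3 peak at any of the 10 genes.

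Around these 10 genes stand other genes of H3K9 methylation, 26 in all: further writers, writer partners, further erasers and readers. At the ends H3K4me3 was called higher at 24 of the 24 tested, against 95.5% of all genes, but at 8 with quantile normalization, which called 3 lower. H3K27ac was called lower at 20 of 20, against 81.6% of all genes, but at 3 with quantile normalization, which called 2 higher. H3K9ac was called higher at 5 and lower at 11 of 24, against 28.5% higher and 30% lower of all genes, and with quantile normalization higher at 5 and lower at 7. Among further writers, H3K9ac ran from Setdb2 (1.13 ± 0.0757 kb in FGR and 2.27 ± 0.0665 kb in Ctrl, SD, n = 4 each; adjusted p = 1.79e-05, limma) to Mecom (1.09 ± 0.494 kb in FGR and 0 kb in every Ctrl library; adjusted p = 0.00263, limma), which had peaks in FGR alone and could be called only higher. Among further erasers it ran from Jmjd1c, a relative of Kdm3a (1.57 ± 0.0342 kb in FGR and 2.47 ± 0.319 kb in Ctrl; adjusted p = 0.00117, limma), to Hr, the hairless demethylase (1.59 ± 0.444 kb in FGR and 0.104 ± 0.208 kb in Ctrl; adjusted p = 0.000505, limma). Jmjd1c also had the widest H3K27ac difference of the list (-2.42 ± 0.163 kb, SE; adjusted p = 3.89e-06, limma).

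Among writer partners, Mphosph8, a subunit of the HUSH silencing complex, had less H3K9ac in FGR (1.06 ± 0.073 kb) than in Ctrl (1.73 ± 0.143 kb; SD, n = 4 each; adjusted p = 0.0006, limma), and Wiz, a partner of Ehmt1 and Ehmt2, had more (1.47 ± 0.26 kb in FGR and 0.835 ± 0.236 kb in Ctrl; adjusted p = 0.0095, limma). Atf7ip, which stabilises Setdb1, had the widest H3K27ac difference of the partners (0.687 ± 0.133 kb in FGR and 2.63 ± 0.453 kb in Ctrl; adjusted p = 3.08e-05, limma). Among readers, the HP1 gene Cbx3 had 2.75 ± 0.193 kb of H3K9ac in FGR and 4.09 ± 0.328 kb in Ctrl (SD, n = 4 each; adjusted p = 0.000292, limma), and Uhrf1 was the reader called higher. Phf8, an eraser of H3K9 dimethylation, had the widest H3K4me3 difference of all 26 (2.65 ± 0.0903 kb in FGR and 0.278 ± 0.211 kb in Ctrl; adjusted p = 6.01e-07, limma). As among the 10 members, H3K9ac was the mark with calls in both directions. For H3K4me3 the widest and narrowest differences were those of Prdm2 (1.7 kb) and Prdm16 (0.507 kb) among further writers, Pphln1 (1.76 kb) and Mphosph8 (0.597 kb) among partners, Phf8 (2.38 kb) and Hr (0.245 kb) among erasers, and Atrx (1.84 kb) and Cbx1 (1 kb) among readers. For H3K27ac they ran from -0.482 kb (Prdm2) to -1.17 kb (Setdb2), from -0.357 kb (Zfp644) to -1.94 kb (Atf7ip), from -0.445 kb (Kdm4d) to -2.42 kb (Jmjd1c) and from -0.607 kb (Atrx) to -1.51 kb (Cbx5). For H3K9me3, 3 of 9 tested were called lower, Tasor (-1.48 kb), Kdm7a (-1.78 kb) and Atf7ip (-1.14 kb), against 34.9% of all genes. With quantile normalization 6 of the 9 had differences above 0 and 1 was called lower. That scaling gave members at 0 kb in every FGR library a shared value of 0.333 kb. A difference above 0 therefore need not mean more H3K9me3 in FGR. With replicate 4 included limma called 0 of the 9 and 0 genes in all. Setdb2 (-0.436 kb), Prdm2 (-0.746 kb), Cdyl (-0.272 kb) and Cbx1 (-0.674 kb) did not pass.

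The gene outside the set with the most similar covered lengths over the 24 libraries of H3K4me3, H3K9ac and H3K27ac at the gene ends was Rps26 for Setdb1, Fam199x for Suv39h1, Thap1 for Suv39h2, Fam98a for Ehmt1, Ppp2r5d for Ehmt2, Ubn1 for Kdm4a, Mta3 for Kdm4b and Hspb6 for Kdm3a. The root mean square differences of these pairs ran from 0.181 kb (Suv39h1 and Fam199x) to 0.352 kb (Kdm4a and Ubn1). Those of Trim28 and Gm31649 reflect 1 shared window. Kdm4c, at 0 in all 24 libraries, had the same values as 4848 other genes.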

How the data were processed

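The 4 marks were mapped in hippocampal microglia with ULI-NChIP-seq, with 4 FGR and 4 Ctrl libraries per mark; 32 peak lists were used, and 2 input libraries had no list here. Per the submitters' processing notes, the build was mm10 and the tools included MACS2 2.2.7.1, DiffBind 3.12.0, Bowtie2 2.4.5, Trim Galore 0.6.5 and SAMtools 1.3.1; the role of each, the calling options and the control sample are not stated there. Each deposited list gives, per peak, a score, a fold enrichment (ratio) over background and −log10 p and q values, all the authors' own. The lists of H3K9me3 replicates 1 to 3 were deposited as broad peaks and that of replicate 4 as narrow peaks, so replicate 4 enters only as an alternative.

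Covered kb was computed for 21631 protein-coding genes of chromosomes 1 to 19 and X (RefSeq, GRCm38.p6) within 2.5 kb of either gene end and over the body. Genes with a peak in at least 2 libraries were tested per mark with limma 3.58.1 (R 4.3.3; Python 3.11.15, pandas 2.3.3 and numpy 2.4.6 for the rest), FGR minus Ctrl, with Benjamini-Hochberg adjustment over all genes and a threshold of 0.05. A gene with peaks in 1 group alone could be called in 1 direction only. The procedure was tested on simulated data. The alternatives were a −log10 q of at least 3 (H3K9me3 also 1.3), lists of equal length, quantile normalization, log2(covered kb + 0.25), no gene filter, eBayes with trend and robust, at least 50% of a peak in the window, a 1 kb window, a replicate block and each library left out; leaving out replicate 4 of both groups and the Kdm4c window were added after the data had been seen. All members were described, with the widest and narrowest difference of each subgroup of further H3K9 genes and the gene most alike to each member. The members and lists were chosen with earlier results of these data known. Read depth is unknown, so no counting error can be given.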

Additional observations from a re-analysis of the deposited data

Results flagged for a closer look

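Of 110 groups of 4 library values of the 10 genes, 18 held a library far from the other 3 by Dixon's test, which flags about 1 in 20 groups by chance; groups in which 3 libraries are at 0 are flagged by any single peak. At the ends, Suv39h1 had 1.4 kb of H3K4me3 in FGR replicate 1 against 1.23 to 1.25 kb in the other FGR libraries. Ctrl replicate 3 of Ehmt1 (0.28 kb) and Ctrl replicate 1 of Kdm4b (0.29 kb) were the only Ctrl libraries of these genes with H3K4me3, and the same peaks gave 0.28 and 0.29 kb over the bodies. For H3K9ac at the ends, Setdb1 had 0.96 kb in FGR replicate 4 (others 1.1 to 1.13 kb), Suv39h2 1.12 kb in Ctrl replicate 4 (others 1.67 to 1.78 kb) and Kdm4b 1.05 kb in Ctrl replicate 2 (others 1.56 to 1.66 kb). For H3K27ac at the ends, Suv39h1 had 0.23 kb in FGR replicate 3 and 0 kb in the other FGR libraries, and Kdm4a had 4.17 kb in Ctrl replicate 1 (others 3.96 to 3.98 kb).

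Over the bodies, Ehmt1 had 1.63 kb of H3K4me3 in FGR replicate 1 (others 1.3 to 1.34 kb) and Kdm4a 0.3 kb in Ctrl replicate 4 (others 0.99 to 1.07 kb). For H3K9ac, Suv39h2 had 0.62 kb in FGR replicate 4 (others 0.69 to 0.7 kb) and 0 kb in Ctrl replicate 4 (others 0.42 to 0.46 kb), and Kdm4c had 2.01 kb in FGR replicate 2 (others 1.5 to 1.56 kb). For H3K27ac, Suv39h2 had 0.23 kb in FGR replicate 3 (others 0 kb), Suv39h1 0 kb in Ctrl replicate 4 (others 0.31 to 0.32 kb) and Kdm4a 6.79 kb in Ctrl replicate 1 (others 7.57 to 7.71 kb).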

How the results depend on the processing

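Counts of genes called, in either direction, were 13410 (ends) and 13634 (body) for H3K4me3, 9128 and 9145 for H3K9ac, 9715 and 8890 for H3K27ac, and 3612 and 7731 for H3K9me3. Quantile normalization moved the median difference of all genes at the ends to -0.0946 kb for H3K4me3 and 0.0482 kb for H3K27ac, against 0.887 and -0.707 kb without it, and turned the majority of calls: H3K4me3 had 5619 at the ends (2220 higher, 3399 lower in FGR) and 6406 over the body (2549 higher, 3857 lower), and H3K27ac had 2830 (1487 higher, 1343 lower) and 2319 (1272 higher, 1047 lower). It also gave 9362 for the H3K9ac body (3923 higher, 5439 lower), and 1167 and 4682 (2154 higher, 2528 lower) for H3K9me3. For H3K9me3 it set members at 0 kb in every FGR library to a shared value above 0 (0.333 kb at the ends, 0.707 kb over the body). Lists of equal length gave 8694 for the H3K9ac body (3303 higher, 5391 lower) and 8693 for its ends (3250 higher, 5443 lower), and 74 and 126 for H3K9me3. For H3K9ac at the ends, where higher and lower calls were nearly equal, the majority also turned on the log2 scale (9356; 4730 higher, 4626 lower), without FGR replicate 4 (9040; 4822 higher, 4218 lower) and without replicate 4 of both groups (8033; 4216 higher, 3817 lower). H3K9me3 gave 16 and 39 at a −log10 q of at least 3, 140 and 891 (139 and 887 of them higher) at 1.3, and at the ends 5832 on the log2 scale, 1888 without a filter and 1353 within 1 kb. With H3K9me3 replicate 4 included limma called 0 genes in both windows, although 3387 and 6397 were lower at an unadjusted p under 0.05. The cause of these changes was not tested. Leaving out 1 library gave 13116 to 13327 and 13015 to 13471 for H3K4me3, 8136 to 9040 and 7956 to 9300 for H3K9ac, 8965 to 9572 and 7739 to 8801 for H3K27ac, and 1526 to 6414 and 5025 to 9402 for H3K9me3.

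Among the members, quantile normalization turned H3K4me3 at Kdm4a (-0.754 kb at the ends, -0.0127 kb over the body), Kdm4c (-1.2 kb, body) and Kdm3a (-0.0982 kb, body), and H3K27ac at the ends of Suv39h2 (0.0183 kb), Ehmt1 (0.206 kb), Trim28 (0.214 kb) and Kdm4b (0.0751 kb). Requiring 50% of a peak in the window turned Trim28 over the body for H3K9ac (0.441 kb) and H3K27ac (0.182 kb). With no gene filter Setdb1 and Ehmt1 (H3K27ac, ends), Suv39h1 (H3K27ac, body) and Ehmt2 (H3K9ac, body) no longer passed. The replicate block gave 13202, 13116, 8737, 8053, 9429, 8039, 3102 and 5645 calls in the order above. Same-numbered libraries did not deviate together (r = -0.0212 to 0.0337). No pairing by number was seen in covered length, which cannot exclude that such libraries were prepared together. With the block the adjusted p (limma) was 0.0504, 0.0593 and 0.113 for the H3K9ac bodies of Ehmt2, Suv39h2 and Trim28, 0.0572 for the H3K27ac ends of Ehmt1 and 0.0863 for the H3K27ac body of Suv39h1, and Kdm4a passed as higher for the H3K9ac body (0.0399). No alternative could use read depth.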
